A study of Mus musculus with 8 samples.

Results

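The genes described here are *Avp*, *Oxt*, *Trh*, *Crh*, *Gal*, *Nts*, *Brs3*, *Mc4r*, *Magel2* and *Trpc4*, a named set of 10 peptide, receptor and related genes of the septum and hypothalamus, out of 54307 genes in the deposited count table. They were measured by bulk RNA sequencing in the periventricular area with the ventricular-subventricular zone (V-SVZ), dissected from 1 hemisphere of each mouse at 8 weeks of age. The WT group held 3 females (replicates 1, 3 and 4) and 1 male (replicate 2), and the *Lrig1* KO group held 2 males (replicates 1 and 3) and 2 females (replicates 2 and 4). All were on the 129-Elite strain background. The KO is constitutive and is made by homozygosity for an *Lrig1* allele that carries CreERT2, so the loss is not limited to a cell type. The set was chosen with the KO against WT results in view, and *Nts*, *Brs3*, *Mc4r* and *Magel2* are in a table of differentially expressed genes that the study made from these same mice. The comparison of KO with WT is therefore given for these genes as a description without a test.

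*Avp* and *Oxt* encode vasopressin and oxytocin, which large neurons of the paraventricular and supraoptic nuclei of the hypothalamus make and send to the posterior pituitary. *Trh* and *Crh* encode the releasing hormones at the head of the thyroid and adrenal axes, and *Gal* and *Nts* encode galanin and neurotensin, peptides of many hypothalamic, septal and preoptic neurons. Each is made as a longer precursor that is cut in secretory granules, and the peptides act on G protein-coupled receptors. *Brs3* (an orphan bombesin-like receptor) and *Mc4r* (the melanocortin receptor that restrains feeding) are such receptors, *Magel2* encodes an imprinted MAGE family cofactor of a ubiquitin ligase on endosomes, and *Trpc4* encodes a calcium-permeable cation channel.

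*Avp* and *Oxt* lie next to each other on chromosome 2 on opposite strands, reading towards each other. Their transcripts are shown first because part of each is identical, which limits how reads can be told apart. The following stretch of 127 bases is the longest that both transcripts hold, all of it coding, at positions 144 to 270 of the *Avp* transcript (577 bases) and 156 to 282 of the *Oxt* transcript (537 bases) in Gencode M21 of GRCm38. Capitals mark bases that are the same in both.
Avp and Oxt: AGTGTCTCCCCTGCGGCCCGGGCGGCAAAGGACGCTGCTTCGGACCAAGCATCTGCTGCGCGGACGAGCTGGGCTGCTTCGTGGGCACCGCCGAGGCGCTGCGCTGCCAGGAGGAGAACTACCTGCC
Of the 31-base words of each transcript, 17.7% of those of *Avp* and 19.1% of those of *Oxt* were shared with the other. A read that falls inside the stretch cannot be given to 1 gene, while the remaining bases are particular to each within the pair.

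Of the 10 genes, 8 had an entry in the RefSeq table of promoters (GRCm38.p6). The 250 bases before the start of *Avp*, *Oxt* and *Nts* are printed because the first pair varied most among the mice and *Nts* had the highest median level per length in WT mice. Capitals mark matches to TGANTCA (AP-1) or TGACG (the core of the cyclic AMP response element), searched on both strands.
Avp (chr2:130582589-130582838, minus strand): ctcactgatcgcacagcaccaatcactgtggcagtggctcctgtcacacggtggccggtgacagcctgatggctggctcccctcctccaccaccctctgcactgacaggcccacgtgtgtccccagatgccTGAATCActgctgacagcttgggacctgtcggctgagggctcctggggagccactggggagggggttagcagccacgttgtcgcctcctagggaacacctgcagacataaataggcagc
Oxt (chr2:130575919-130576168, plus strand): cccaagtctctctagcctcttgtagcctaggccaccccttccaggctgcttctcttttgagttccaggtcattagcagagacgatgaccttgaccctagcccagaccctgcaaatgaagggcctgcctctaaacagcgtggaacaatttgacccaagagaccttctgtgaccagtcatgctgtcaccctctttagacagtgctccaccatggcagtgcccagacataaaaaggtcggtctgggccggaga
Nts (chr10:102490419-102490668, minus strand): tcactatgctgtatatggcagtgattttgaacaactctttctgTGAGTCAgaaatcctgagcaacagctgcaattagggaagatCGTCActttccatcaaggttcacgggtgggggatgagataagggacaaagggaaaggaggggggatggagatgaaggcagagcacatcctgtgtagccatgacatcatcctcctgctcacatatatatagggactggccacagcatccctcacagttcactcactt
The AP-1 letters were found in 3 of the 8 promoters (*Avp*, *Magel2* and *Nts*) and in 6.7% of all 32851 promoters of the table. The TGACG letters were found in 2 of the 8 (*Trh* and *Nts*) and in 17.8% of all promoters. The *Oxt* window holds neither. A match is a description of letters and no evidence of binding.

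The total of estimated counts per mouse lay between 47887437 and 61826150 in WT and between 52664769 and 74482334 in KO. *Lrig1* was at 13.5 to 45.6 CPM (counts relative to library size, scaled by the TMM method) in the 4 WT mice and at 1.17 to 4.15 CPM in the 4 KO mice, with no overlap. Its adjusted p in edgeR's quasi-likelihood test was nevertheless 0.286 without a covariate, and it was 0.000172 with sex as a covariate and 4.13e-08 in DESeq2. V-SVZ markers were present in each mouse, with *Gfap* at 48.0 to 103.3 CPM and *Dcx* at 24.7 to 33.2 CPM, and markers of striatal medium spiny neurons summed to 2282 to 6742 CPM, so the dissections held more than the V-SVZ. WT replicate 2 stood apart, with markers of cortical excitatory neurons summing to 1757 CPM against 61.6 to 849.1 CPM in the other mice, and the fold changes of the 10 genes are given with and without it.

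*Avp* was at 0.252, 0.0164, 1.02 and 12.9 CPM in WT replicates 1 to 4 and at 0.508, 110.0, 0.610 and 14.4 CPM in KO replicates 1 to 4. These values rest on 1 to 634 estimated counts in WT and on 26 to 6497 in KO. KO replicate 2 held 7.63 times as much *Avp* as the next mouse, and the next in order were KO replicate 4 and WT replicate 4, so each group had 1 or 2 mice far above its others and the groups overlapped.

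*Oxt* was at 0.144, 0.0164, 0.341 and 22.5 CPM in the WT mice and at 0.195, 89.1, 0.133 and 9.46 CPM in the KO mice. The same 3 mice were high as for *Avp*, although WT replicate 4 stood above KO replicate 4 here. In the other 5 mice *Oxt* had between 1 and 16 estimated counts. WT replicate 2 had 1 estimated count each of *Avp* and *Oxt*, under the 3 counts taken as the limit of what can be told from 0 in these libraries. Neither gene could be told from 0 in that mouse, and this limit covers counting error only.

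*Trh* was at 4.10, 0.998, 2.66 and 12.5 CPM in the WT mice and at 2.85, 34.8, 3.22 and 4.87 CPM in the KO mice. Its 3 highest mice were again KO replicate 2, WT replicate 4 and KO replicate 4. In the remaining mice *Trh* was spread over 0.998 to 4.10 CPM and was thus always detected, unlike *Oxt*.

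*Gal* was at 0.342, 0.0327, 0.0639 and 3.47 CPM in the WT mice and at 0.586, 18.6, 0.676 and 1.81 CPM in the KO mice. WT replicates 2 and 3 held 2 and 3 estimated counts, at or under that limit. KO replicate 2 held 5.36 times as much *Gal* as WT replicate 4, the second highest mouse. Of the 2 *Gal* transcripts in the files, the one of 788 bases held 95.0% of the reads pooled over the mice, and the one of 672 bases had reads only in the 3 mice with the most *Gal*.

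*Nts* was at 15.7, 1.59, 8.36 and 14.2 CPM in the WT mice and at 11.2, 43.1, 14.4 and 21.9 CPM in the KO mice. Here the spread was narrower. Apart from both replicates 2 the mice lay within a factor of 2.62 of each other, and KO replicate 2 was 1.97 times the next mouse, KO replicate 4. The 2 KO males lay between WT replicates 3 and 1, so the groups overlapped.

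*Crh* was at 3.22, 4.12, 0.959 and 3.26 CPM in the WT mice and at 3.36, 6.82, 4.48 and 4.82 CPM in the KO mice. WT replicate 3 was the low mouse, and WT replicate 2, lowest for most of the set, was the highest WT mouse. The groups overlapped only through WT replicate 2, which lay above KO replicate 1.

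Among the receptors, *Brs3* was at 0.702, 0.0491, 0.767 and 1.04 CPM in the WT mice and at 0.977, 4.94, 0.928 and 1.34 CPM in the KO mice. KO replicate 2 held 3.69 times as much as KO replicate 4, and WT replicate 2 had 3 estimated counts. The other 6 mice lay within a factor of 1.91.

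*Mc4r* was at 2.59, 0.966, 1.71 and 2.04 CPM in the WT mice and at 2.17, 2.95, 2.67 and 3.26 CPM in the KO mice. It was the most even gene of the set, with 3.38 times between its lowest and highest mouse. It was also the only one in which KO replicate 2 was not the highest mouse, and its groups overlapped because WT replicate 1 lay above KO replicate 1.

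*Magel2* was at 3.87, 0.753, 2.13 and 6.67 CPM in the WT mice and at 2.79, 21.9, 3.20 and 5.53 CPM in the KO mice. Its order of mice was close to that of *Trh*, with KO replicate 2, WT replicate 4 and KO replicate 4 on top and WT replicate 2 at the bottom.

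*Trpc4* was at 7.61, 12.7, 5.01 and 8.93 CPM in the WT mice and at 9.999, 22.1, 11.0 and 10.4 CPM in the KO mice. WT replicate 2 was the second highest mouse, and the 3 other WT mice lay below every KO mouse. Of its reads, 58.6% to 70.7% in each mouse were given to 1 coding transcript of 3473 bases.

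**Figure D1:**
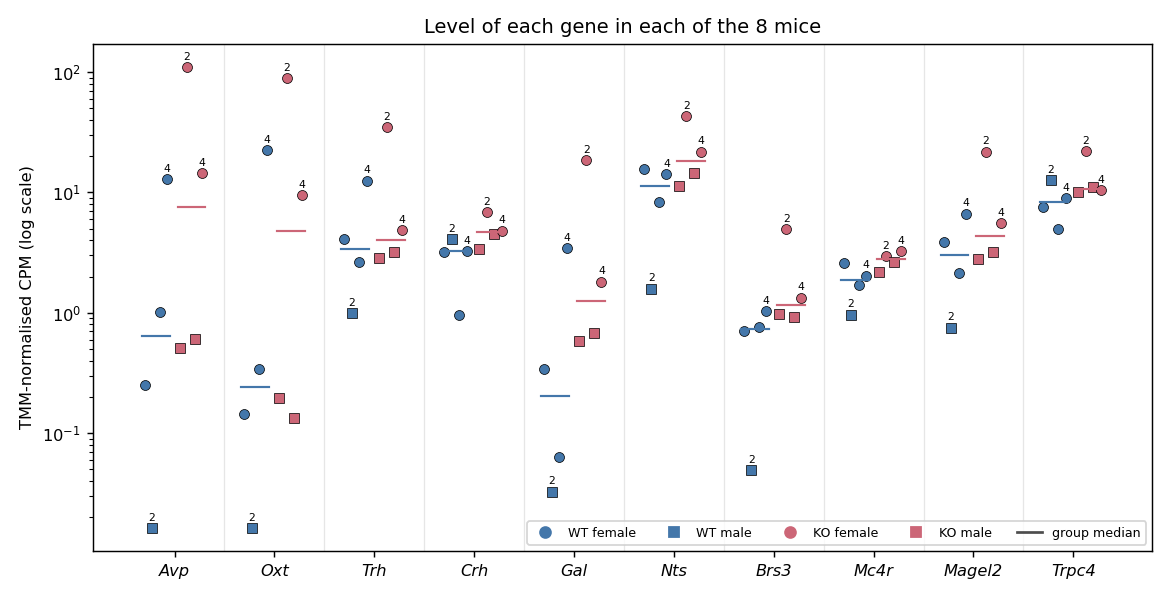
TMM-normalised CPM (log axis) of the 10 genes, 1 point per mouse, WT in blue and KO in red, circles for females and squares for males, with group medians as bars and replicates 2 and 4 numbered. KO replicate 2 is the highest mouse for 9 of the 10 genes and WT replicate 2 the lowest for 8.

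KO replicate 2 was the highest of the 8 mice for 9 of the 10 genes, a position it held for 16.0% of the 17669 genes tested. WT replicate 2 was the lowest for 8 of the 10, all but *Crh* and *Trpc4*, against 20.5% of all genes. In *Avp*, *Oxt*, *Trh*, *Gal*, *Brs3* and *Magel2* the 3 highest mice were KO replicate 2, WT replicate 4 and KO replicate 4, in some order, against 5.07% of all genes. These 3 mice are of both genotypes and all female. Since the set was chosen on a contrast of the same mice, these counts are descriptions.

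Per transcript length, in TPM (transcripts relative to all transcripts of a mouse), *Nts* had the highest median level in the WT mice, 15.2 TPM (range 2.42 to 21.7). It was followed by *Crh* at 4.29, *Trh* at 3.72, *Trpc4* at 3.71, *Avp* at 2.43, *Oxt* at 1.06, *Mc4r* at 0.961, *Magel2* at 0.830, *Gal* at 0.507 and *Brs3* at 0.349 TPM. In the KO mice *Avp* came first with a median of 34.2 TPM (range 1.93 to 483.5), before *Nts* at 25.6 (13.3 to 58.2) and *Oxt* at 24.8 TPM (0.746 to 443.5). The medians of *Avp* and *Oxt* there fall between 2 mice under 4 TPM and 2 mice of 48.7 TPM or more, and describe no single mouse. No pair of neighbours in either order differed beyond its spread, as the ranges of all neighbours overlapped. *Brs3* was the lowest of the set in both groups, with 0.0289 to 0.605 TPM in WT and 0.445 to 2.55 TPM in KO.

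The study asked which transcripts change on loss of LRIG1. The mean of *Avp* was 3.55 ± 6.26 CPM (SD, n = 4) in WT and 31.4 ± 52.8 CPM (SD, n = 4) in KO, and that of *Oxt* 5.74 ± 11.2 and 24.7 ± 43.1 CPM. In these genes, as in *Gal* at 0.976 ± 1.67 and 5.41 ± 8.79 CPM, the SD exceeded the mean in both groups. *Nts* was at 9.97 ± 6.43 CPM in WT and 22.6 ± 14.3 CPM in KO, *Mc4r* at 1.83 ± 0.679 and 2.76 ± 0.465 CPM, and *Crh* at 2.89 ± 1.35 and 4.87 ± 1.44 CPM. In bulk tissue, fewer cells of a type and less RNA per cell cannot be told apart.

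On the log2 scale, the edgeR fit put all 10 genes above 0 for KO over WT, where 49.7% of all genes tested lay above 0 and 50.3% below. The values for the peptides were 3.15 (SE 1.89) for *Avp*, 2.11 (SE 2.08) for *Oxt*, 2.48 (SE 1.51) for *Gal*, 1.18 (SE 0.98) for *Trh*, 1.18 (SE 0.65) for *Nts* and 0.75 (SE 0.40) for *Crh*. Those for the receptors were 1.69 (SE 0.80) for *Brs3* and 0.60 (SE 0.28) for *Mc4r*, and *Magel2* and *Trpc4* stood at 1.32 (SE 0.80) and 0.64 (SE 0.34). The groups of mice overlapped for each of the 10 genes, while they did not overlap for 1.53% of all genes. At an adjusted p under 0.1 the fit called 1 of 17669 genes (0.00566%), the predicted gene *Gm43079*, named here after its value was seen, so neither *Lrig1* nor any of the 10 was among the calls of this fit, which leaves out sex.

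Without KO replicate 2 the log2 fold changes of *Oxt* and *Trh* fell below 0, to -0.81 and -0.47, and those of *Avp*, *Gal* and *Magel2* came to 0.55, 0.08 and 0.20. *Nts* at 0.67, *Brs3* at 0.77, *Crh* at 0.54 and *Trpc4* at 0.29 stayed above 0. *Mc4r* was at 0.57, with an SE of 0.32. Without WT replicate 2 all 10 genes lay above 0 and 8 of them came closer to it. *Avp*, *Oxt*, *Gal* and *Trh* were then at 2.74, 1.70, 2.07 and 0.84, *Nts* and *Brs3* at 0.83 and 1.29, and *Mc4r* and *Magel2* at 0.39 and 0.98, while *Crh* and *Trpc4* came to 0.97 and 0.90. Without WT replicate 4, by contrast, *Avp*, *Oxt* and *Gal* came to 6.26, 7.28 and 5.18. These 3 estimates thus swung over several log2 units with the removal of 1 mouse of either group.

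**Figure D2:**
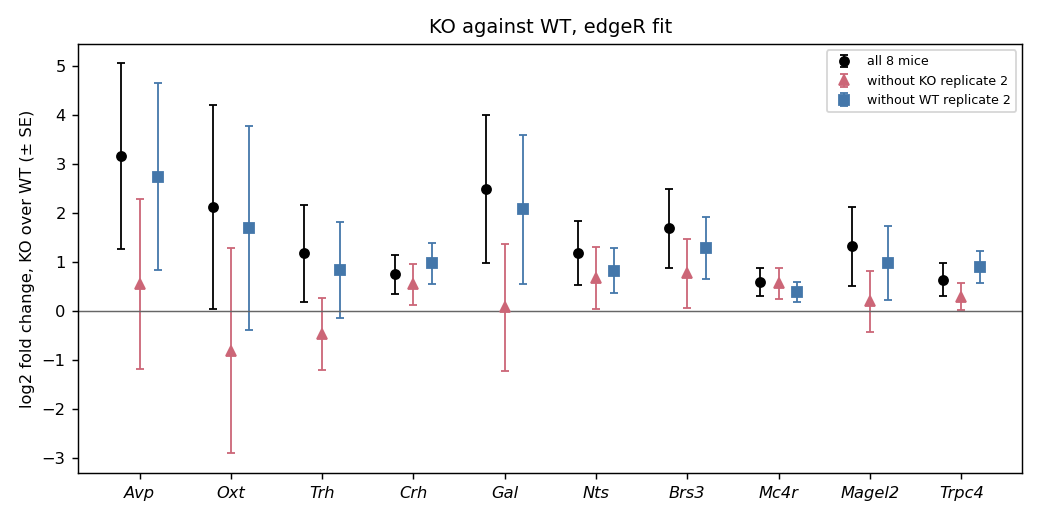
Log2 fold change of KO over WT with its SE (vertical axis) for the 10 genes in the edgeR fit, with all 8 mice (black), without KO replicate 2 (red) and without WT replicate 2 (blue). All 10 black points lie above 0, and the red points of *Oxt* and *Trh* lie below 0.

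Sex differed between the groups, and with sex as a covariate the log2 fold changes of KO over WT were farther from 0 for 8 of the 10 genes. *Nts* came to 1.85 (SE 0.40), *Brs3* to 2.37 (SE 0.53), *Mc4r* to 0.81 (SE 0.22) and *Magel2* to 1.79 (SE 0.48). *Avp*, *Oxt*, *Gal* and *Trh* came to 3.76, 2.70, 3.13 and 1.62, and *Crh* and *Trpc4* remained at 0.75 and 0.64. In that fit edgeR called 2 of 18635 genes (0.0107%), *Lrig1* and 0 of the 10 among them. An unadjusted p under 0.05 was held by 7 of the 10 and by 1287 of the 18635 genes. DESeq2 with sex as a covariate called 211 of the 16801 genes it gave an adjusted p (1.26%), among them *Nts*, *Brs3*, *Mc4r* and *Magel2*, and gave none to *Avp*, *Oxt* and *Gal*. Since the set was chosen on this contrast in these mice, these counts too are descriptions.

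In the 5 females alone, 3 WT and 2 KO, the log2 fold changes of KO over WT were 3.73 for *Avp*, 2.70 for *Oxt*, 2.99 for *Gal*, 1.63 for *Trh*, 1.35 for *Nts* and 1.23 for *Crh*. *Brs3*, *Mc4r*, *Magel2* and *Trpc4* were at 1.91, 0.56, 1.70 and 1.18. The direction with all mice therefore held among females, where KO replicate 2 is 1 of the 2 KO mice. That fit called 3 of 18041 genes (0.0166%) in edgeR and 0 of the 10. There 7 of the 10 and 958 of the 18041 genes had an unadjusted p under 0.05. Without both replicates 2, 6 of the 10 genes remained above 0, and *Oxt*, *Trh*, *Gal* and *Magel2* were at -1.22, -0.82, -0.32 and -0.14.

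The labels also give the sex of the mice, and males were compared with females with genotype as a covariate. KO replicate 2, highest for 9 of the 10 genes, is a female, and WT replicate 2, lowest for 8, is the only WT male, so the same pair of mice that weighed in KO against WT weighed in this contrast too. It is not independent of the choice of the genes, and its values for them are likewise given as a description. *Avp*, at 0.0164 to 0.610 CPM in the 3 males and 0.252 to 110.0 CPM in the 5 females, had a log2 fold change of male over female of -6.86 (SE 1.59). *Nts* was at 1.59 to 14.4 CPM in males and 8.36 to 43.1 CPM in females, with -1.93 (SE 0.43). *Magel2* was at 0.753 to 3.20 CPM in males and 2.13 to 21.9 CPM in females, with -2.30 (SE 0.53). These 3 of the 10 genes had an adjusted p under 0.1 in edgeR's quasi-likelihood test, where 0.843% of the 18635 genes tested were called lower, 3.01% higher and 3.85% in either direction. The sexes overlapped in each of the 10 genes, while they did not for 7.57% of all genes. With all mice 2 of the 10 genes lay above 0 and 8 below, against 49.6% and 50.4% of all genes.

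Among the other genes, *Oxt* had a log2 fold change of male over female of -8.29 (SE 2.203) and was at 0.0164 to 0.195 CPM in males, where 2 of the 5 females lay at 0.144 and 0.341 CPM. *Brs3* stood at -2.25, *Trh* at -2.70, *Gal* at -4.20 and *Mc4r* at -0.66. With all mice *Crh* and *Trpc4* were at 0.01 (SE 0.42) and 0.03 (SE 0.36), but that rests on WT replicate 2, without which they were at -0.58 and -0.64 and all 10 genes lay below 0.

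WT replicate 2 is the only WT male. Without it the WT mice are all female, and with genotype as a covariate the difference between the sexes comes from the KO mice alone. The size of the difference then changed little for *Avp* (-6.79), *Oxt* (-8.26), *Trh* (-2.72), *Gal* (-4.01) and *Magel2* (-2.201) and was smaller for *Nts* (-1.35). However, 0 of the 10 genes then passed in edgeR, where 11 of 18422 genes passed in all (0.0597%). An unadjusted p under 0.05 was held by 7 of the 10 and by 1325 of the 18422 genes. A fit of the KO mice alone, 2 males and 2 females, draws on the same mice for this contrast and is no separate check. The count of the set there was also 0, where 8 of 18089 genes passed (0.0442%). There 7 of the 10 and 1298 of the 18089 genes had an unadjusted p under 0.05. Without both replicates 2 the only KO female left is KO replicate 4, so the contrast then rests on that mouse against the KO males. *Avp* was at 0.252 and 1.02 CPM in WT replicates 1 and 3, both female, and at 0.508 and 0.610 CPM in the KO males. In the fit without both replicates 2, *Avp* and *Oxt* stood at -4.69 (SE 1.78) and -5.88 (SE 2.56), and *Nts*, *Magel2*, *Trh* and *Brs3* at -0.79, -0.90, -0.70 and -0.51. In that fit 1 of the 10 and 667 of 19044 genes had an unadjusted p under 0.05. Of the 10, 0 passed, where 8 of all genes passed (0.042%).

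**Figure D3:**
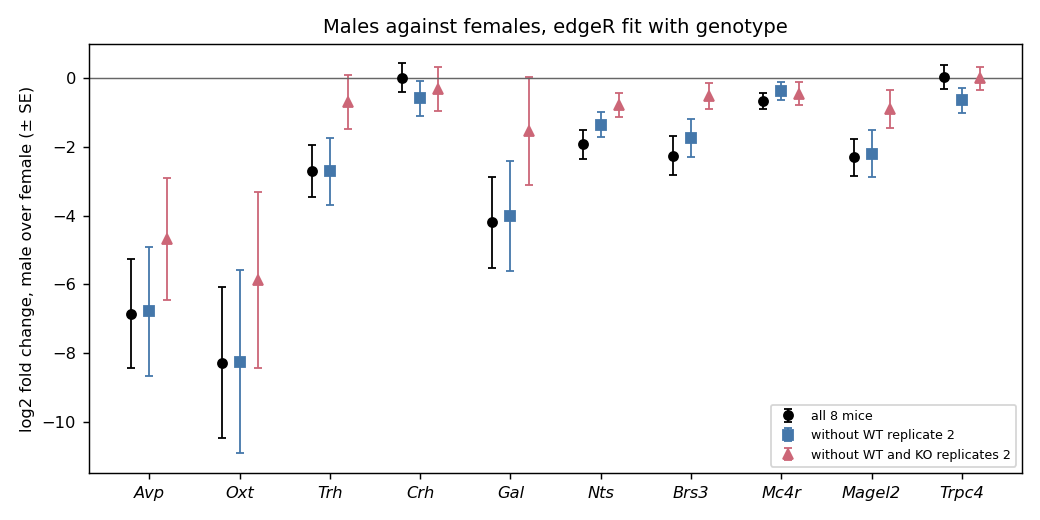
Log2 fold change of male over female with its SE (vertical axis) for the 10 genes in the edgeR fit with genotype, with all 8 mice (black), without WT replicate 2 (blue) and without both replicates 2 (red). *Avp* and *Oxt* lie below -4 in all 3 fits. The blue fit draws this contrast from the KO mice alone. The red fit draws it from the KO males and KO replicate 4, the only KO female left. *Crh* and *Trpc4* lie near 0 with all mice and at -0.58 and -0.64 without WT replicate 2.

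Cortical markers moved with the same contrast. Their sum was 471.6 to 1757 CPM in the 3 males and 61.6 to 353.7 CPM in the 5 females, without overlap. Of the 7 listed markers, none at 0 in any mouse, 5 were called higher in males, among them genes with log2 fold changes of male over female of 4.33 for *Slc17a7* (adjusted p = 0.0397 in edgeR), 4.01 for *Neurod6*, 2.86 for *Tbr1* and 1.96 for *Fezf2*. Without WT replicate 2, the mouse at 1757 CPM, all 7 log2 fold changes stayed above 0 and 0 were called. All 7 also stayed above 0 without both replicates 2. Both fits draw this contrast from KO mice only. Sex and the level of cortical markers cannot be told apart in these mice, and the part of the latter in the values of *Avp*, *Nts* and *Magel2* was not tested.

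The 10 genes varied together over the mice. Pearson's r of log2 CPM over the 8 mice, which all pairs share, had a median of 0.78 over the 45 pairs (range 0.18 to 0.98). The set was chosen on a contrast of these mice, so values above 0 are partly set by that choice. No median over pairs of other genes was taken, and these values are descriptions. *Avp* and *Oxt* had the highest value, 0.98, followed by *Trh* with *Magel2* at 0.97 and *Nts* with *Brs3* at 0.97. *Crh* and *Trpc4* correlated with each other at 0.90 but at a median of 0.38 (0.18 to 0.62) with the remaining 8 genes, and that split was made after the values were seen. It rests on single mice, as the median of those 16 pairs was 0.73 (0.48 to 0.89) without WT replicate 2, -0.03 (-0.36 to 0.45) without KO replicate 2 and 0.60 without both. The 28 pairs of those 8 genes had a median of 0.87 (0.55 to 0.98).

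Without both replicates 2 the median of the 28 pairs was 0.71 (0.05 to 0.97). *Avp* with *Oxt* remained at 0.97, *Magel2* with *Gal* at 0.91 and with *Trh* at 0.90, and *Nts* with *Mc4r* at 0.92, while *Mc4r* with *Trh* came to 0.05. *Crh* then stood at 0.84 with *Nts*, 0.83 with *Mc4r* and 0.95 with *Trpc4*.

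**Figure D4:**
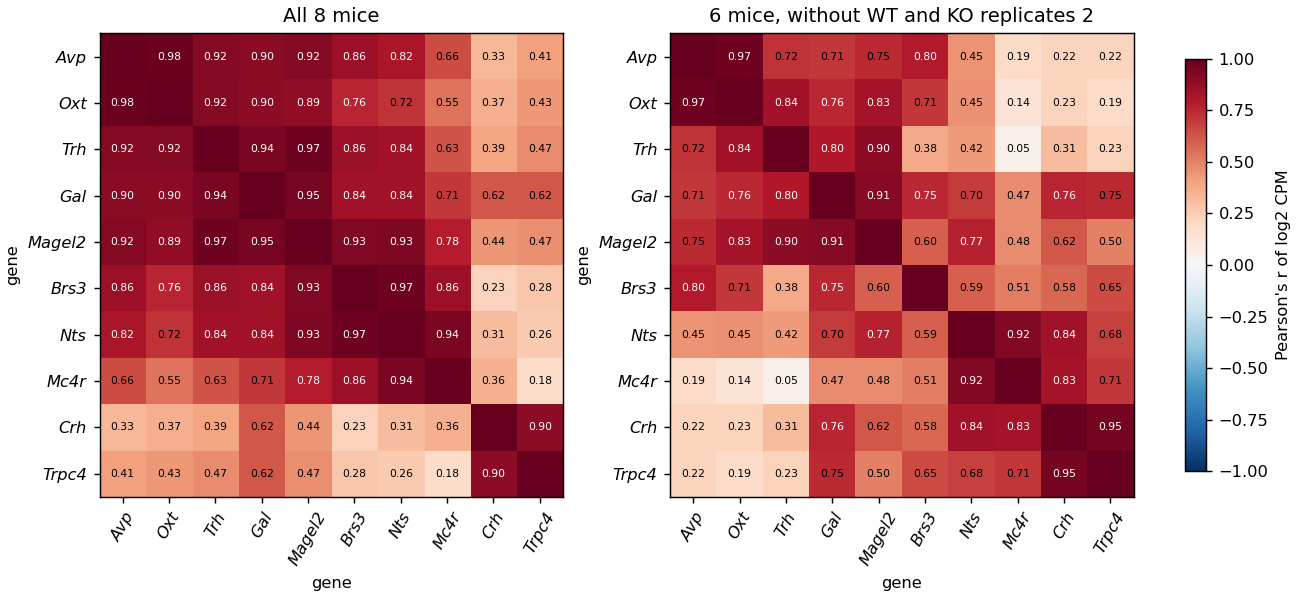
Pearson's r of log2 CPM for each pair of the 10 genes over all 8 mice (left) and over the 6 mice without both replicates 2 (right), with colour running from -1 to 1. On the left *Crh* and *Trpc4* have a median of 0.38 with the other 8 genes, and on the right of 0.60, where *Avp* with *Oxt* keeps 0.97 while *Mc4r* with *Trh* is at 0.05.

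Outside the set, the genes of 14442 searched whose log2 CPM followed the mean of the standardised 10 genes most closely over the 8 mice included *Mrap2* (r = 0.986), *Flvcr1*, *Grb10* and *Clcn5* (each 0.983), *Gabrq* (0.979), *B3gat2*, *Impact* and *Crebl2* (each 0.976) and *B630019K06Rik* (0.974). For single genes, *Sik1* was the closest to *Avp* (0.982) and among the 3 closest to *Oxt* (0.976), after *Itpkb* (0.983) and *Prr5* (0.977). *Tnnt2* (0.972) and *Ripk4* (0.970) came next for *Avp*. *Chrnb2* (0.996), *Gpc3* (0.990) and *Tspyl2* (0.987) followed *Trh*, and *Gabrq* (0.988), *Clcn5* (0.987) and *B3gat2* (0.982) followed *Gal*. *Magel2* was followed most closely by *Grb10* (0.997), with *Ankfn1* at 0.989. *Nts* was followed by *Peg10* (0.981), *Arhgap6* and *Galr1* (each 0.978), and these came to 0.747 to 0.795 without both replicates 2. *Brs3* was followed by *Slc29a1* (0.985), *Ddc* (0.981) and *Fhl1* (0.979), and these came to 0.798, 0.704 and 0.819 without both replicates 2. *Mc4r* was followed by *Rprd2* (0.969), *Nnt* (0.968) and *Cntnap2* (0.964), *Crh* by *Spindoc* (0.981), *Gm17244* (0.966) and *Gm37499* (0.961), and *Trpc4* by *Tuba1b* (0.979), *Gnpda1* (0.976) and *Coq3* (0.972). Apart from those of *Nts* and *Brs3*, the lowest value without both replicates 2 was 0.869, for *Cntnap2* with *Mc4r*. With 8 mice and so many genes searched, values this high describe these mice only.

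The receptors and binding partners of the 6 peptides were a list of 15 genes, 11 of them tested for KO against WT. Their median log2 fold change was 0.04, with 7 above 0, against a median of -0.000942 over all genes. *Oxtr*, the oxytocin receptor, was at 1.92 to 6.40 CPM in WT and 5.34 to 6.57 CPM in KO, and *Ntsr2*, a neurotensin receptor, at 69.0 to 137.1 and 67.2 to 130.1 CPM. The vasopressin receptor *Avpr1a* had its highest level in KO replicate 2 at 3.47 CPM and 0.192 to 1.35 CPM in the other mice. Between the sexes, *Galr1* was lower in males at -1.47 (adjusted p = 0.0628, edgeR), and the binding protein *Crhbp* and the neurotensin receptor *Sort1* were higher at 1.55 (0.0183) and 0.34 (0.0954).

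Relatives and partners of the receptors, *Magel2* and *Trpc4* (20 genes, 17 tested) had a median of 0.14 for KO over WT, with 15 above 0. *Ndn*, an imprinted neighbour of *Magel2*, was at 86.0 to 335.4 CPM in WT and 116.3 to 388.6 CPM in KO, with an order of mice unlike that of *Magel2*: its highest mouse was KO replicate 4 and its second KO replicate 1. *Mrap2*, the accessory protein of melanocortin receptors, was highest in KO replicate 2 at 27.5 CPM and lowest in WT replicate 2 at 4.73 CPM. *Trpc7* was the 1 gene of this list called between the sexes, at -0.89 for male over female (adjusted p = 0.0451 in edgeR).

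The enzymes and granule proteins that process peptide precursors (16 genes, all tested) had a median of -0.04 for KO over WT, with 7 above 0. *Cpe*, the carboxypeptidase that trims peptides, was at 2249 to 2807 CPM in WT and 2174 to 2573 CPM in KO, and KO replicate 2, with 2573 CPM, lay inside the WT range. Between the sexes *Qpct*, which forms the pyroglutamate end of peptides such as TRH, was lower in males at -0.60 (adjusted p = 0.0748 in edgeR). Of 29 other neuropeptide genes, 18 were tested for KO against WT, with a median of -0.03 and 8 above 0. *Penk*, the most abundant, was at 492.0 to 1822 CPM in WT and 839.8 to 1534 CPM in KO. *Cck*, *Vip*, *Npy* and *Sst* were higher in males at 3.27, 2.88, 0.69 and 0.40, opposite in direction to *Avp*, *Nts* and *Magel2*. *Cck* was highest, at 259.5 CPM, in WT replicate 2, the mouse with the most cortical markers. Without that mouse 0 genes of this list were called. Sex and the level of cortical markers cannot be told apart for these 4 genes either.

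Transcription factors of hypothalamic neurons (26 genes, 12 tested) had a median of 0.35 for KO over WT with 10 above 0, and -0.00466 with 6 above 0 without KO replicate 2. *Otp* and *Sim1*, which specify the neurons that make vasopressin and oxytocin, were at 9.67 and 3.27 CPM in KO replicate 2, at 4.63 and 1.65 CPM in WT replicate 4 and at 2.25 and 1.37 CPM in KO replicate 4. In the other 5 mice *Otp* was at 0.0900 to 0.605 CPM and *Sim1* at 0 to 0.0720 CPM. The 3 mice high in *Avp* and *Oxt* were thus the 3 with the most *Otp* and *Sim1*. *Sim1* was lower in males at -5.99 (adjusted p = 0.0904, edgeR), as was *Nkx2-1* at -1.55 (0.0810).

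The list of steroid and metabolic receptors of hypothalamic neurons (17 genes, 14 tested) also held *Irs4*, *Baiap3*, *Dlk1* and *Cyp19a1*, which are no such receptors. Its median for KO over WT was 0.76 with 11 above 0, and 0.12 with 10 above 0 without KO replicate 2. In KO replicate 2 *Baiap3* and *Dlk1* gave 183.9 and 143.9 of the 677.3 CPM of the list. *Irs4* was at 60.8 CPM in KO replicate 2 against 0.376 to 13.6 CPM elsewhere, and *Esr1*, the oestrogen receptor, at 19.4 CPM against 1.002 to 4.45 CPM. These genes were named after their values were seen, and not all receptors of the list followed them. In KO replicate 2 *Nr3c2*, *Insr* and *Pgr* were at 54.4, 33.9 and 20.7 CPM. Elsewhere they were at 44.7 to 63.3, 33.9 to 44.0 and 17.9 to 23.8 CPM. *Baiap3* was lower in males at -2.38 (adjusted p = 0.0882 in edgeR).

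Septal genes (14, all tested) had a median of 0.66 for KO over WT with 14 above 0, and 0.27 with 10 above 0 without KO replicate 2. *Zic1*, a septal transcription factor, was at 143.3 CPM in KO replicate 2 against 12.7 to 38.5 CPM in the other mice. Between the sexes 7 were lower in males, among them the cholinergic genes *Chat*, *Slc18a3* and *Slc5a7* and the transcription factors *Lhx8* and *Gbx1*, with log2 fold changes of male over female of -2.01 to -1.15. *Slc5a7* differed from the peptide genes in that KO replicate 4, at 74.4 CPM, lay above KO replicate 2, at 61.8 CPM. For KO against WT, 0 of the 101 tested genes of these 7 lists passed in edgeR. An unadjusted p under 0.05 was held by 0 of them and by 333 of all 17669 genes. In DESeq2 without covariates 0 passed, and 1 had an unadjusted p under 0.05, against 393 of all genes. These fits leave out sex. With sex as a covariate 0 of 110 passed in edgeR and 37 had an unadjusted p under 0.05, against 1287 of all 18635 genes. In females alone 0 of 110 passed and 20 had such a p, against 958 of 18041. In DESeq2 with sex 13 of 110 passed and 41 had such a p, against 1367 of 18635. For males against females 19 of the 110 tested genes of the 7 lists passed with all mice, and 0 without WT replicate 2. In the latter fit 37 of 110 had an unadjusted p under 0.05, against 1325 of all 18422 genes. The lists were chosen with earlier results of these data known, and their genes were measured in the same few mice. The counts for the lists are therefore descriptions.

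**Figure D5:**
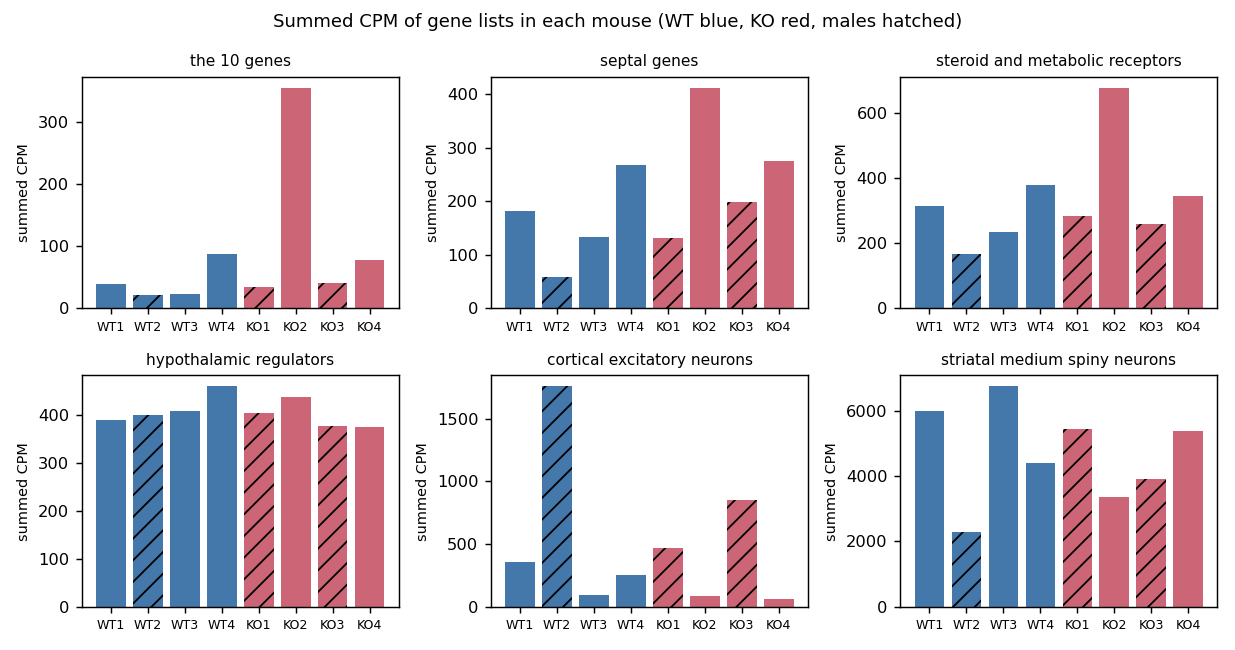
Summed CPM (linear axes from 0) of the 10 genes, of 3 lists of regional genes and of cortical and striatal markers in each mouse, WT in blue, KO in red and males hatched. KO replicate 2 has the highest sum of the 10 genes (354.2 CPM), of septal genes (411.3 CPM) and of the list of steroid and metabolic receptors (677.3 CPM). The last list also holds genes that are no such receptors. WT replicate 2 has the highest sum of cortical markers (1757 CPM).

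Summed over the 10 genes, the mice held 38.6, 21.3, 23.0 and 87.5 CPM in WT and 34.6, 354.2, 41.3 and 77.8 CPM in KO. The septal list summed to 59.4 CPM in WT replicate 2 and to 411.3 CPM in KO replicate 2, against 131.2 to 275.9 CPM in the other mice. The sum over hypothalamic transcription factors was flatter, at 374.7 to 459.8 CPM, and most of it was *Arnt2* and *Six3*, which neurons outside the hypothalamus also express. Striatal markers ran lower in both of these mice, at 2282 CPM in WT replicate 2 and 3352 CPM in KO replicate 2 against 3910 to 6742 CPM elsewhere. Pituitary markers summed to 0.0846 to 0.246 CPM in every mouse. KO replicate 2 thus had the highest sums of the 10 genes and of the septal list, where *Zic1* gave 143.3 of the 411.3 CPM. Its sum of striatal markers was low. The part of these levels in the values of the 10 genes was not tested.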

How the data were processed

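The authors made polyA-selected libraries, ran bcl2fastq 2.20 and Salmon (version not stated) on Gencode M29, and deposited estimated counts per gene and, for each mouse, estimated counts and TPM per transcript. How transcripts were summed to genes is not given in the sources used here. The columns were matched to mice by animal tags, and 0 were left over. Symbols covered 94.8% of 54307 identifiers, and 97.4% of transcripts matched Gencode M21. Sequences come from M21 transcripts and RefSeq promoters, both of GRCm38, whereas the counts rest on a later annotation, and TPM was summed over the transcripts of a gene.

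Counts were rounded and fitted with edgeR 4.0.16 in R 4.3.3 (TMM, filterByExpr, quasi-likelihood test, Benjamini-Hochberg over all genes, threshold an adjusted p of 0.1), tested first on simulated counts. SE is the log2 fold change over the square root of F. Correlations used log2 CPM with a prior count of 2. A count of 3 was taken as the floor. The depth of 47887437 to 74482334 counts per mouse sets the counting error, and each label is 1 mouse.

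The members and lists were chosen with earlier results of these data known. Named genes were all 10, list genes called in either fit or of high level in a list, and the 3 genes most like each member (mean of at least 1 CPM), with 10 for their mean, and a few genes under this rule are not reported here. Alternatives were DESeq2 1.42.0 and its size factors, no filter or a minimum of 10 counts, a robust fit, covariates, a replicate block, females or KO mice alone, and each mouse left out. Leaving out both replicates 2 was chosen after seeing the data.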

Additional observations from a re-analysis of the deposited data

Results flagged for a closer look

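In groups of 4 WT, 4 KO or 5 female mice, the highest or lowest mouse lay far from the others in 16 of 48 groups examined (33.3%). The measure was the gap to its nearest neighbour over the range. The cut-offs used flag about 1 in 20 for normally distributed values, and whether these CPM values are so was not tested. The groups share mice and the genes vary together, so these are not independent. KO replicate 2 was far above the other KO mice for *Avp* (110.0 CPM), *Oxt* (89.05 CPM), *Trh* (34.84 CPM), *Gal* (18.57 CPM), *Brs3* (4.943 CPM), *Magel2* (21.85 CPM) and *Trpc4* (22.14 CPM). The same mouse was far above the other females for *Avp*, *Oxt*, *Gal*, *Brs3* and *Magel2*, at the same 110.0, 89.05, 18.57, 4.943 and 21.85 CPM. WT replicate 4 was far above the other WT mice for *Avp* (12.93 CPM), *Oxt* (22.47 CPM) and *Gal* (3.466 CPM). WT replicate 2 was far above the other WT mice in the summed markers of cortical excitatory neurons (1757 CPM).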

How the results depend on the processing

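For KO against WT, 1 gene was called in the fit as described, 13 with DESeq2, 2 without a filter, 0 with a minimum of 10 counts in every mouse, 2 with sex as a covariate, 3 in females alone, 3 without both replicates 2 and 0 to 3 when 1 mouse was left out (0 without WT replicate 1 or 4). DESeq2 with sex as a covariate called 211 genes (1.26%), with 4 of the 10, which were chosen on this contrast, and 13 genes of the fixed lists. The genes of the set above 0 were 6 with a minimum of 10 counts, where only 6 were tested, and 6 without both replicates 2. With 1 mouse left out, *Oxt* ran from -0.811 (without KO replicate 2) to 7.28 (without WT replicate 4) and *Trh* from -0.472 to 2.15 without the same mice, and *Oxt*, *Trh*, *Gal* and *Magel2* turned to -1.22, -0.815, -0.324 and -0.135 without both replicates 2.

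For males against females, 717 genes, 3 of the set and 19 of the lists were called. DESeq2 called 1586 genes and 47 of the lists, a fit with no filter 1360, 7 of the set and 45 of the lists, a robust fit 0 of the set and 12 of the lists, and a fit with no covariate 9 genes and 0 of the set and lists. KO mice alone gave 8 genes, 0 of the set and 1 of the lists, and both replicates 2 left out gave 8, 0 and 0, and in these 2 fits 0 genes of the set stood above 0. Leaving out 1 mouse gave 11 (without WT replicate 2) to 1527 (without KO replicate 1) genes, 0 (without WT replicate 2, KO replicate 2 or KO replicate 3) to 5 (without KO replicate 4) of the set, 0 to 25 of the lists and 0 to 2 of the set above 0. *Crh* turned to -0.576 in KO mice alone, -0.314 without both replicates 2, and ran from -0.58 (without WT replicate 2) to 0.245 (without KO replicate 2), with -0.196 without WT replicate 3. *Trpc4* turned to -0.639 and -0.00483 in the first 2 of these, and to -0.00806, -0.643, -0.114 and -0.0577 without WT replicate 1, 2 or 3 or KO replicate 4, with 0.442 without KO replicate 2 as the highest. What caused these shifts was not tested.

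With the replicate number as a block, 0 genes were called for KO against WT, and 27 genes, 0 of the set and 1 of the lists for males against females. The numbers do not pair the mice, as deviations of same-numbered mice from their group means correlated at 0.08, -0.22, -0.22 and 0.27. The median r of the 45 pairs was 0.69 as a rank correlation and 0.724 to 0.844 with 1 mouse left out. *Avp*, *Oxt*, *Gal* and *Brs3* rest on 3 counts or fewer in WT replicate 2, so depth sets no lower value there.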

Other observations

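Single genes of the fixed lists, named here after their values were seen, differed in how they followed *Avp* and *Oxt*. *Gnrh1*, which encodes gonadotropin-releasing hormone of preoptic and septal neurons, was at 4.32 CPM in KO replicate 2 and 1.31 CPM in WT replicate 4, and at 0 to 0.265 CPM in the other 6 mice, KO replicate 4 (0.221 CPM) included. The 7 mice apart from KO replicate 2 held 0.0164 to 0.408 CPM of *Prdm12*, and that mouse held 5.82 CPM. *Pnoc*, the precursor of nociceptin, likewise ran from 1.32 to 8.60 CPM in those 7 mice and reached 21.9 CPM in KO replicate 2. For KO against WT each of the 3 genes had an adjusted p of 0.9998 in edgeR.

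Genes of other hypothalamic neurons differed in level. *Pomc*, the precursor of melanocortins, was at 1.18 to 1.96 CPM and *Tac2*, which encodes neurokinin B, at 2.51 to 11.5 CPM over the 8 mice, with KO replicate 2 inside the range of the others for both. The transcription factors *Hmx2*, *Hmx3*, *Bsx* and *Six6* were highest in KO replicate 2, at 1.29, 1.98, 0.626 and 0.711 CPM, as was *Fezf1* at 1.42 CPM. Some others stayed low. *Agrp*, a peptide of arcuate neurons that drives feeding, reached at most 0.152 CPM, *Hcrt* (orexin) and *Rax* at most 0.122 and 0.0816 CPM, *Nr5a1* of the ventromedial nucleus at most 0.0816 CPM, and *Pmch* of the lateral hypothalamus at most 0.741 CPM, in KO replicate 4. In KO replicate 2, where *Avp* was at 110.0 CPM, *Agrp* was at 0.152 CPM, *Hcrt* at 0 CPM and *Pmch* at 0.508 CPM.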
